A study of Homo sapiens with 4 samples.

Results

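Antisense RNAs are transcripts read from the DNA strand opposite to another gene, and a symbol such as TMEM147-AS1 names the antisense RNA after its sense gene, TMEM147. Entries of such genes were taken from a table of gene levels in K562 cells. An entry was kept when its name was a single symbol ending in -AS and a number and its count was at least 200 in all 4 libraries. This gave 123 entries with 118 symbols, out of 64873 entries in the table and 1560 antisense entries of any count. The members were thus selected on their counts, so their being expressed is no result. Because the floor held in both groups, an antisense RNA lost from either group could not be among the 123.

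K562 is an established human erythroleukemia cell line. All 4 libraries came from K562 cells overexpressing U2AF1 S34F, a hotspot mutant of the small subunit of the splicing factor that binds the 3′ splice site. 2 libraries were from cells given the solvent DMSO and 2 from cells given SF1-8, a small molecule directed at a domain of U2AF1, at 30 μM for 48 h. The comparison of both groups asks which RNAs differ after the compound. No library of cells without the mutant was analysed here, and the vector and number of clones of the line were not given in the sources used here. Nothing in the labels says that the libraries of a group came from separate cultures, so the p-values measure only the spread between these libraries, which may be technical.

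Antisense RNAs of the -AS kind are mostly long non-coding RNAs, spliced and polyadenylated much as mRNAs are, but usually at lower levels. Many start close to the start of the sense gene and run away from it, as a pair that shares a bidirectional CpG-rich promoter, while others lie across exons or introns of the sense gene or meet its 3′ end. Some are known to act on transcription, splicing or stability of the sense RNA, and for many no function is known. In leukemia cells such RNAs include partners of hematopoietic transcription factor genes, such as GATA2-AS1.

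Promoter windows are shown for 3 pairs whose RefSeq starts lie back to back, and for TMEM147-AS1, the antisense entry with the smallest p below. Each RefSeq window on GRCh38.p14 spans 250 bases before and 50 bases after the start of the antisense gene, written 5′ to 3′ on its own strand. Capitals mark the bases that also lie in the window of the sense gene. The window of SCAMP1-AS1 is chr5:78360492-78360791 on the minus strand, and 175 of its 300 bases belong also to the window of SCAMP1. The window of EIF1B-AS1 is chr3:40309649-40309948 on the minus strand, with 108 shared bases. That of STX18-AS1 is chr4:4541881-4542180 on the plus strand, with 182 shared bases. The window of TMEM147-AS1 is chr19:35545980-35546279 on the minus strand and shares no base with that of TMEM147, so it is printed without capitals.
SCAMP1-AS1: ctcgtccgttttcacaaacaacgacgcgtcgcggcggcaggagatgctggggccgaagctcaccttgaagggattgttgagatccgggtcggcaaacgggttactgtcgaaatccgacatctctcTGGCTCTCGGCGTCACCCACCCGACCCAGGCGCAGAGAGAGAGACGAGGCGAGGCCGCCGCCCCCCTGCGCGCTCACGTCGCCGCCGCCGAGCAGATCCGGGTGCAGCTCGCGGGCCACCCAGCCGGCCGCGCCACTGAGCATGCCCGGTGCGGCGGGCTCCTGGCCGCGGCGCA
EIF1B-AS1: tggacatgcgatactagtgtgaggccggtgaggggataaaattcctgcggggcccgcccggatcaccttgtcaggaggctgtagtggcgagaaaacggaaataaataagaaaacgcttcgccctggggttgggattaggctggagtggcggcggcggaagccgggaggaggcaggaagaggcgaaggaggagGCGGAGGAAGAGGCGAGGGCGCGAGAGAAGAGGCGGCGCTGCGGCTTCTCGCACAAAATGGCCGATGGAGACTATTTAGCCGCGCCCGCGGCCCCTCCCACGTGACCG
STX18-AS1: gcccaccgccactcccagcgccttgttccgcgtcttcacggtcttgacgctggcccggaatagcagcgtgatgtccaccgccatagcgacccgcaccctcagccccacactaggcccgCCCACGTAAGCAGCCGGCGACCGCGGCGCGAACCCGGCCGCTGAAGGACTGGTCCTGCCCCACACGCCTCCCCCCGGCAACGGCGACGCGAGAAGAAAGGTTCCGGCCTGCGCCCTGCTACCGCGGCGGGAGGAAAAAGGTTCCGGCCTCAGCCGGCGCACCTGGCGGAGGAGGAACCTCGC
TMEM147-AS1: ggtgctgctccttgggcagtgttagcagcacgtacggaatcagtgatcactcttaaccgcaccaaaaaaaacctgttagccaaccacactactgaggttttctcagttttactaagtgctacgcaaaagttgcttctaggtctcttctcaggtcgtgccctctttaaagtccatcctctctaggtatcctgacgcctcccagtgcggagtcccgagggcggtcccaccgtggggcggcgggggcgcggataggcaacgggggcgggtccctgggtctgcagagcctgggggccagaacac

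Of the 118 symbols, 85 matched a window in the RefSeq table, and 74 had a window for the sense gene too. In 13 of these 74 pairs the windows shared bases. The median GC content was 62.7% in the 85 windows and 58.7% over all 35116 windows, and the median number of CpG dinucleotides was 21 and 14. The letters GGGCGG, the core of a GC box, occurred on either strand in 47 of the 85 windows, or 55.3%, against 45.0% of all windows. CCAAT was found in 35.3% against 34.6%, and TATAAA in 7.06% against 11.5%. The 35116 windows were not limited to expressed genes, and the part of the count floor in these differences was not tested. All 4 windows printed above held GGGCGG and none held CCAAT or TATAAA on either strand. These are matches of letters and no binding was measured.

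The table gives each entry's deposited count and its FPKM, a level scaled by the length of the transcript and the depth of the library. Total counts were 45522905 in DMSO 1 and 64305922 to 67554610 in the other libraries, and the antisense entries held 0.216% to 0.245% of them. The floor of 200 was therefore higher, relative to depth, in DMSO 1, where it stood for 4.39 CPM of the total count against 2.96 to 3.11 CPM in the others, and DMSO 1 had the lowest count of 86 of the 123 entries. Erythroid markers fixed for K562 were well expressed, with GATA1, the erythroid transcription factor, at 75.9 to 79.1 FPKM. The summed level of the 10 entries for 12 K562 markers was 286 to 287 FPKM with DMSO and 260 to 279 with SF1-8. 8 stromal markers, led by the collagen gene COL1A1, summed to 9.94 and 4.72 FPKM with DMSO and to 2.46 and 0.594 with SF1-8, with FAP at 0 in 3 libraries and LUM at 0 in both SF1-8 libraries. 6 lymphoid markers summed to 5.15 to 5.95 and to 4.33 to 4.40 FPKM, most of it from CD3D, with MS4A1, CD79A and LCK at 0 in 2 or 3 libraries each. NEAT1, a nuclear non-coding RNA, stood at 13.5 and 8.65 FPKM with DMSO and at 4.45 and 4.68 with SF1-8. MALAT1, the other nuclear RNA marker, read 0.757 and 0.449 FPKM with DMSO and 0.709 and 1.47 with SF1-8, with overlapping groups. The part of these differences in the antisense results was not tested.

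The arrangement of each antisense entry beside its sense entry was read from the table's coordinates and strands on GRCh38. 93 of the 123 entries overlapped the sense entry on the opposite strand. Of these, 39 overlapped head to head at their 5′ ends, 25 lay inside the sense entry, 20 overlapped tail to tail, and 9 contained the sense entry. A further 18 lay head to head with a gap, as SCAMP1-AS1, EIF1B-AS1 and STX18-AS1 did, and 2 lay tail to tail with a gap. 36 of the 113 pairs on opposite strands had starts within 1000 bp, at a median distance of 249 bp. 4 entries, HOXB-AS2, HOXC-AS2, TRG-AS1 and RPARP-AS1, had no sense entry under the symbol before -AS.

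The strand in the table limits some pairs. It matched the strand in GENCODE 29 for 118 entries and was the opposite for RAB11B-AS1 and the plus-strand entry of PROSER2-AS1. These and BCL2L1-AS1 carried the same strand as the sense entry, and in 3 more pairs a strand was missing. 17 pairs had a sense entry that named several genes, as that of EMC3 did. Whether reads were counted by strand was not given in the sources used here. Without strand, reads from an antisense gene and from an overlapping sense gene cannot be told apart, which applies to each overlapping pair below.

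The antisense RNAs were expressed at low levels. The mean FPKM over the 4 libraries ran from 0.165 for CPB2-AS1 to 21.1 for the minus-strand entry of PROSER2-AS1, with a median of 1.68. It was under 1 for 31 entries, from 1 to under 2 for 45, from 2 to under 5 for 36, and 5 or more for 11. The median over the 11226 entries of the whole table that passed the same floor of 200 was 4.98 FPKM.

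The minus-strand entry of PROSER2-AS1 was the most abundant, at 27.0 and 15.9 FPKM with DMSO and at 21.0 and 20.5 with SF1-8. FGD5-AS1, next in the order, stood at 15.1 and 12.7 against 14.0 and 17.0 FPKM, while its sense gene FGD5, an exchange factor of endothelial cells, was listed at 0 in all libraries. In both genes the groups overlapped, and so did the levels of PROSER2-AS1 and FGD5-AS1 in these libraries. VPS9D1-AS1 followed with 10.2 and 9.84 FPKM with DMSO and 11.6 and 10.6 with SF1-8, every library under those of FGD5-AS1, and with both SF1-8 libraries above both DMSO libraries. TMEM132D-AS1, whose sense gene was also listed at 0, stood at 9.93 FPKM in DMSO 1 and at 6.25 to 6.36 in the other 3 libraries. B3GALT1-AS1 read 6.69 and 6.56 FPKM with DMSO and 5.92 and 6.16 with SF1-8, so that the groups did not overlap. ARRDC1-AS1, PAXIP1-AS1 and FOXD2-AS1 lay between 4.82 and 6.09 FPKM in every library, and the ranges of these 3 genes overlapped each other. For ARRDC1-AS1 both SF1-8 libraries, at 5.98 and 5.43 FPKM, were below both DMSO libraries, at 6.09 and 6.04, and for PAXIP1-AS1 and FOXD2-AS1 the groups overlapped. GATA2-AS1, antisense to the blood stem cell transcription factor GATA2, read 4.50 and 5.45 FPKM with DMSO and 5.01 and 5.15 with SF1-8, in the range of its neighbours.

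**Figure D1:**
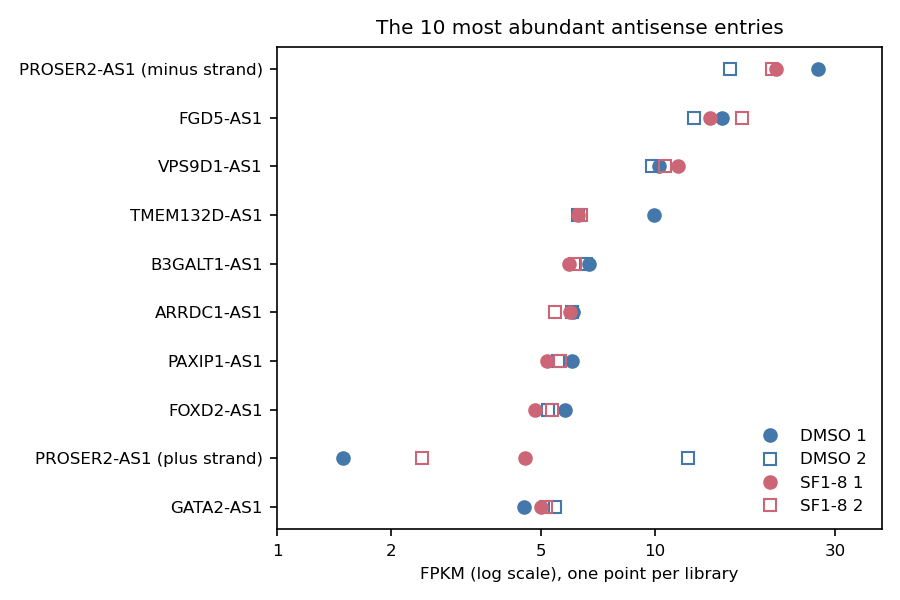
FPKM of the 10 antisense entries with the highest mean, one point per library on a logarithmic axis, with DMSO in blue and SF1-8 in red. Most entries have their 4 points close together, and the plus-strand entry of PROSER2-AS1 spans 1.49 to 12.3 FPKM.

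Levels were mostly below those of the sense gene. In the 116 pairs with a sense level above 0, the sense entry had a median of 3.26 times the FPKM of the antisense entry. The sense level was higher in every library in 82 pairs and the antisense level in 26, and in 20 pairs the antisense level was under 0.1 of the sense level. At one end lay SLC25A5, the mitochondrial ADP/ATP carrier, with 274 times the mean FPKM of SLC25A5-AS1, which itself read 0.933 to 1.22. EIF1B, a paralogue of the translation initiation factor eIF1, stood 118-fold over EIF1B-AS1, and STARD7, a carrier of phosphatidylcholine to mitochondria, 86.9-fold over STARD7-AS1. At the other end EPB41L4A-AS1, a host of a small nucleolar RNA, read 3.80 to 5.03 FPKM where EPB41L4A read 0.0286 to 0.117. SVIL-AS1, AFAP1-AS1 and TSPEAR-AS2 likewise lay far above their sense entries, with ratios of 42.7 (plus-strand entry), 21.4 and 77.3. GENCODE 29 lists SVIL-AS1 as a transcribed pseudogene, so that its reads may be shared with a parent copy.

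**Figure D2:**
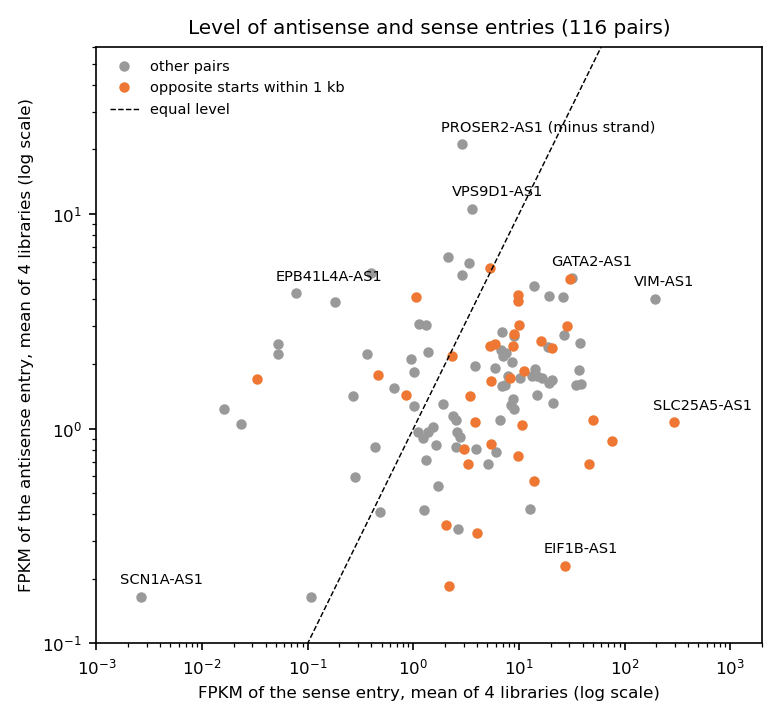
Mean FPKM over the 4 libraries of the antisense entry (vertical) and of its sense entry (horizontal) for 116 pairs, both axes logarithmic, with pairs on opposite strands whose starts lie within 1 kb in orange. Most points lie to the right of the dashed line of equal level, the median sense level being 3.26 times the antisense level.

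No antisense entry passed the test after SF1-8. All 123 entered the fit over 26167 entries by the quasi-likelihood test of edgeR, adjusted after Benjamini and Hochberg. None, that is 0, had an adjusted p under 0.05, the smallest being 0.76, against 0.0420% of all entries tested (11 entries, 0.0229% lower and 0.0191% higher) and 0.0624% of the entries with at least 200 counts in all libraries. At an unadjusted p under 0.05 there were 6 of 123, or 4.88%, close to the 4.33% of all entries tested and the 4.18% of those past the floor. Of the 6, 5 were lower and 1 was higher with SF1-8, where 2.54% and 1.78% of all entries tested were. By DESeq2, with its own default filtering and its own Benjamini-Hochberg adjustment, no antisense entry passed either, with a smallest adjusted p of 0.069. None passed under the other alternatives. With 2 libraries a group, an exact two-sided permutation test cannot give a p below 0.33. In bulk RNA, fewer cells of a kind and less RNA per cell cannot be told apart.

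The changes were small. 94 of the 123 fitted log2 fold changes were within 0.3 of zero and 116 within 0.5, and they ran from -0.99 to 1.01. 86 were below 0 and 37 above, and the median was -0.071, beside -0.011 over all entries tested and 0.022 over the 11226 entries with at least 200 counts in all libraries. Below 0 were 69.9% of the antisense entries, 51.6% of all entries tested and 42.9% of the 11226. FPKM was lower in both SF1-8 libraries than in both DMSO libraries for 34 antisense entries, where all entries tested gave 20.0% and the 11226 gave 17.1%, and higher for 9, where they gave 14.2% and 15.7%. In the remaining 80 the groups overlapped. Under the other scalings, tests and filters, with all 4 libraries kept, 83 to 91 of the 123 were below 0.

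The lean was smaller without DMSO 1, the shallowest library. DMSO 1 had the highest FPKM of 64 of the 123 antisense entries, or 52.0%, and of 37.4% of the 11226 entries. Without DMSO 1 the median was -0.034, with 68 entries below 0 and 55 above, and 11 were at an unadjusted p under 0.05, 5 lower and 6 higher. These 11 are 8.94% of the antisense entries, where the same fit gave 4.82% of all 27835 entries it tested and 5.78% of the 11226. Its medians were 0.0055 over all entries and 0.012 over the 11226, and 49.2% and 46.6% of their log2 fold changes were below 0. In a fit that leaves out a library, 1 group has a lone library, which is assumed to vary like those of the other group. The median was -0.095 for the 57 entries whose lowest count was under 400 and -0.062 for the other 66. It was -0.057 for the 36 pairs with starts within 1000 bp and -0.087 for the other 77 pairs on opposite strands.

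**Figure D3:**
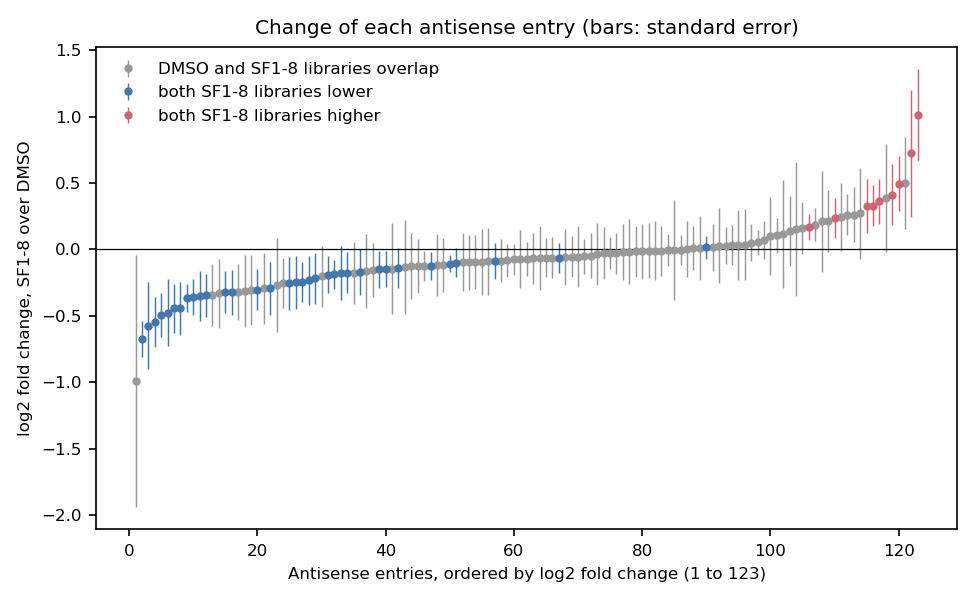
Fitted log2 fold change, SF1-8 over DMSO, of each of the 123 antisense entries in rising order, with bars of 1 standard error. Blue marks the 34 entries whose FPKM is lower in both SF1-8 libraries, red the 9 whose FPKM is higher in both, and grey the 80 in which the groups overlap.

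The 6 entries with an unadjusted p under 0.05 all overlapped the sense gene. TMEM147-AS1 (chromosome 19, 35540738 to 35546029, minus strand) overlaps the 5′ end of TMEM147, a membrane protein of the endoplasmic reticulum, by 430 bp. It read 3.92 and 3.56 FPKM with DMSO and 2.47 and 2.11 with SF1-8. TMEM147 read 30.9 and 26.4 against 28.3 and 27.7 FPKM. Both SF1-8 libraries were thus low for the antisense RNA, while those of the sense gene lay between the DMSO libraries. The fitted level of TMEM147-AS1 was 37.4% lower, a log2 fold change of -0.68 ± 0.14 (SE), and that of TMEM147 was -0.0036 ± 0.09. By the quasi-likelihood test of edgeR, adjusted after Benjamini and Hochberg, TMEM147-AS1 had an adjusted p of 0.76, with 0.069 to 1 over the alternatives, and the other 5 had 0.97.

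STARD7-AS1 (chromosome 2, 96208403 to 96243353, plus strand) also overlaps the 5′ end of its sense gene, by 423 bp. It read 1.02 and 1.06 FPKM with DMSO and 0.740 and 0.668 with SF1-8, against 73.2 to 79.7 FPKM for STARD7 in all libraries. The antisense groups did not overlap, with a log2 fold change of -0.54 ± 0.19 (SE), and the sense gene differed by 0.09 ± 0.06. PPM1F-AS1 (chromosome 22, 21938269 to 21977632, plus strand) runs from within PPM1F, a phosphatase of the PP2C family. Its FPKM was 2.94 and 3.28 with DMSO and 2.43 and 2.32 with SF1-8. Both SF1-8 libraries were the lower ones, with a log2 fold change of -0.36 ± 0.10 (SE). PPM1F read 25.2 and 27.1 FPKM with DMSO and 27.6 and 27.2 with SF1-8, with 0.09 ± 0.08. Its SF1-8 libraries were narrowly the higher ones.

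HCFC1-AS1 (chromosome X, 153965991 to 153970606, plus strand) lies inside the gene of HCFC1, a coregulator of cell cycle transcription. It read 2.12 and 1.67 FPKM with DMSO and 1.33 and 1.30 with SF1-8, and HCFC1 33.1 to 35.9 FPKM in all libraries. The DMSO libraries differed from each other more than the SF1-8 libraries did, and both were above them. The log2 fold change was -0.49 ± 0.17 (SE) for HCFC1-AS1 and 0.02 ± 0.09 for HCFC1. G2E3-AS1 (chromosome 14, 30407570 to 30573629, minus strand), antisense to the ubiquitin ligase gene G2E3, read 2.28 and 2.17 against 1.57 and 1.85 FPKM. Again the groups did not overlap, with a log2 fold change of -0.36 ± 0.14 (SE). G2E3 read 3.72 and 4.40 FPKM with DMSO and 3.64 and 3.71 with SF1-8. Its groups did not overlap either, in the same direction, with a log2 fold change of -0.12 ± 0.13.

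EMC3-AS1 (chromosome 3, 9986893 to 10006990, plus strand) was the only one of the 6 with a higher level after SF1-8. It lies inside the entry of EMC3, a subunit of the complex that inserts proteins into the endoplasmic reticulum membrane, and GENCODE 29 lists it as a transcribed pseudogene, so that reads may be shared with a parent copy. It read 1.24 and 2.50 FPKM with DMSO and 3.80 and 3.69 with SF1-8, while the EMC3 entry, which names another gene, read 6.45 to 7.23. The SF1-8 libraries were close to each other and the DMSO libraries far apart. Its log2 fold change of 1.01 ± 0.35 (SE) was 0.57 without DMSO 1 and 1.66 without DMSO 2. Over the alternatives by edgeR, DESeq2 and limma, its adjusted p after Benjamini and Hochberg ran from 0.057 to 1, the lowest being from the fit without DMSO 2, in which DMSO had 1 library.

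**Figure D4:**
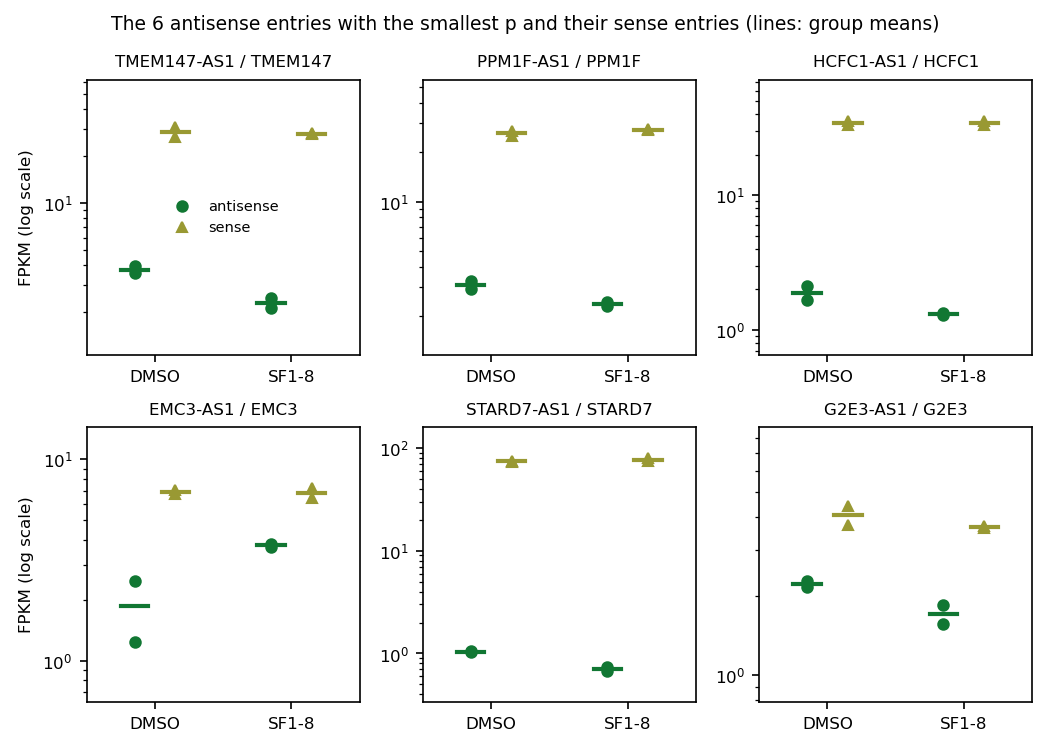
FPKM by library (points) and group mean (lines) on logarithmic axes for the 6 antisense entries with the smallest p and their sense entries. The SF1-8 points of the antisense RNA lie below both DMSO points in 5 panels and above them in the EMC3-AS1 panel, while DMSO and SF1-8 points of the sense genes lie close together.

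The other values at the ends of the range rested on libraries that differed within a group. The plus-strand entry of PROSER2-AS1, with no annotated transcript, read 1.49 and 12.3 FPKM with DMSO and 4.52 and 2.42 with SF1-8. Its 8.25-fold spread was the widest of the 123, and its log2 fold change of -0.99 ± 0.95 (SE) became 1.29 without DMSO 2. LBX2-AS1, antisense to a homeobox gene, read 3.70 and 3.67 against 3.20 and 1.66 FPKM, with -0.57 ± 0.33. LIMD1-AS1 read 3.22 and 1.90 against 1.89 and 1.70 FPKM, with -0.48 ± 0.25. Most of the difference came with 1 library, as LBX2-AS1 had -0.17 without SF1-8 2 and LIMD1-AS1 -0.098 without DMSO 1.

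OTUD6B-AS1, which overlaps the 5′ end of the deubiquitinase gene OTUD6B, read 1.94 and 0.634 FPKM with DMSO and 1.99 and 2.13 with SF1-8. DMSO 2 was low and the other libraries alike. The log2 fold change of 0.72 ± 0.48 (SE) was 1.68 without DMSO 1 and 0.15 without DMSO 2. OTUD6B itself read 4.33 and 4.11 FPKM with DMSO and 4.40 and 8.91 with SF1-8, with 0.68 ± 0.32. Its groups did not overlap, but SF1-8 1 was close to the DMSO libraries. SVIL-AS1 on the plus strand was high in SF1-8 2 alone, at 3.51 FPKM against 1.68 to 2.07 in the rest. Its log2 fold change was 0.50 ± 0.35, and -0.09 without SF1-8 2. TMEM161B-AS1 had the same form, with 0.521 FPKM in SF1-8 2 and 0.216 to 0.296 elsewhere, and its 0.39 ± 0.41 turned to -0.36 without SF1-8 2. SLC9A3-AS1 read 1.17 and 1.50 against 1.98 and 1.52 FPKM, with 0.41 ± 0.23, and the lower SF1-8 library was level with DMSO 2.

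Among the head-to-head pairs with a gap, SCAMP1-AS1 (chromosome 5, 78342365 to 78360416, minus strand) and SCAMP1, a secretory vesicle membrane protein, had fitted changes of opposite sign. SCAMP1-AS1 read 1.39 and 1.00 FPKM with DMSO and 1.79 and 1.51 with SF1-8, both SF1-8 libraries being higher. SCAMP1 read 5.37 and 2.76 against 2.43 and 3.11 FPKM, so that DMSO 1 stood apart and the groups overlapped. The log2 fold changes were 0.50 ± 0.21 (SE) and -0.52 ± 0.31. EIF1B-AS1 (chromosome 3, 40061110 to 40309698, minus strand) was tight within groups, with 0.204 and 0.201 FPKM against 0.254 and 0.258, and its log2 fold change was 0.36 ± 0.17. EIF1B, which starts 9 bp away, read 25.4 to 29.2 FPKM with overlapping groups and a log2 fold change of 0.02 ± 0.10, whose sign turned under 6 other settings.

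STX18-AS1 (chromosome 4, 4542131 to 4787359, plus strand) was the reverse case, with the smallest p of the sense genes on the side of the sense gene. STX18, a syntaxin of traffic at the endoplasmic reticulum, read 3.02 and 2.39 FPKM with DMSO and 1.67 and 1.60 with SF1-8. STX18-AS1 read 0.207 and 0.165 against 0.163 and 0.203 FPKM. The groups were separate for STX18, with a log2 fold change of -0.69 ± 0.15 (SE), and overlapped for STX18-AS1, with 0.0023 ± 0.21. The promoter windows of this pair and of the SCAMP1 and EIF1B pairs are those printed above.

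The sense genes as a list held no call either. Of the 114 distinct sense entries, 109 entered the fit, 0 had an adjusted p under 0.05 by the quasi-likelihood test of edgeR after Benjamini and Hochberg (smallest 0.882, for STX18), and 4, or 3.67%, had an unadjusted p under 0.05. Their log2 fold changes were below 0 in 50 and above 0 in 59, with a median of 0.0071. DESeq2 with its own filtering and adjustment called 0 sense entries too, with 6 at an unadjusted p under 0.05, and limma 0, with 4. The 4 by edgeR were STX18, VPS9D1, FBXL19 and ATP6V0E2. VPS9D1 read 4.68 and 3.74 FPKM with DMSO and 3.16 and 2.93 with SF1-8, with a log2 fold change of -0.43 ± 0.12 (SE). VPS9D1-AS1, which lies inside it, was the higher one with SF1-8, at 0.17 ± 0.10. Both RNAs had groups that did not overlap, in opposite directions.

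FBXL19, a CpG-binding F-box protein, shares its entry with other genes. The entry read 10.1 and 10.4 against 8.19 and 6.24 FPKM, a log2 fold change of -0.48 ± 0.15 (SE). The pair of FBXL19-AS1 entries had 0.16 ± 0.20 and -0.06 ± 0.15. The entry with 0.16 lay outside the FBXL19-AS1 gene of GENCODE 29. It was among the 7 antisense entries with no annotated transcript. ATP6V0E2, a subunit of the proton-pumping V-ATPase, read 3.57 and 3.28 against 4.62 and 3.94 FPKM, with 0.35 ± 0.12, and ATP6V0E2-AS1 had 0.21 ± 0.24. WAC, next in the order of p, had -0.18 ± 0.07 and WAC-AS1 0.07 ± 0.14.

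Antisense and sense changes could be set side by side in 114 pairs. Both were below 0 in 36 pairs and both above 0 in 20, while the antisense change was below 0 and the sense change above in 43, and the reverse held in 15. No pair had an unadjusted p under 0.05 on both sides, by edgeR, DESeq2 or limma on log2(FPKM + 1). The median distance between both log2 fold changes was 0.20, and 95 pairs differed by less than 0.5.

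The widest distance was that of KCTD21-AS1 and KCTD21, an adaptor of a cullin ubiquitin ligase. KCTD21-AS1 read 1.27 and 0.964 FPKM with DMSO and 0.827 and 0.787 with SF1-8, with a log2 fold change of -0.44 ± 0.20 (SE). KCTD21 read 1.17 and 0.218 against 1.85 and 2.22 FPKM, with 1.61 ± 0.71. DMSO 2 was far below DMSO 1 for the sense gene, whose value was 3.19 without DMSO 1 and 0.87 without DMSO 2. EPB41L4A-AS1 came next, with -0.06 ± 0.15 against 1.05 ± 0.55 for EPB41L4A, a gene at no more than 0.117 FPKM.

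**Figure D5:**
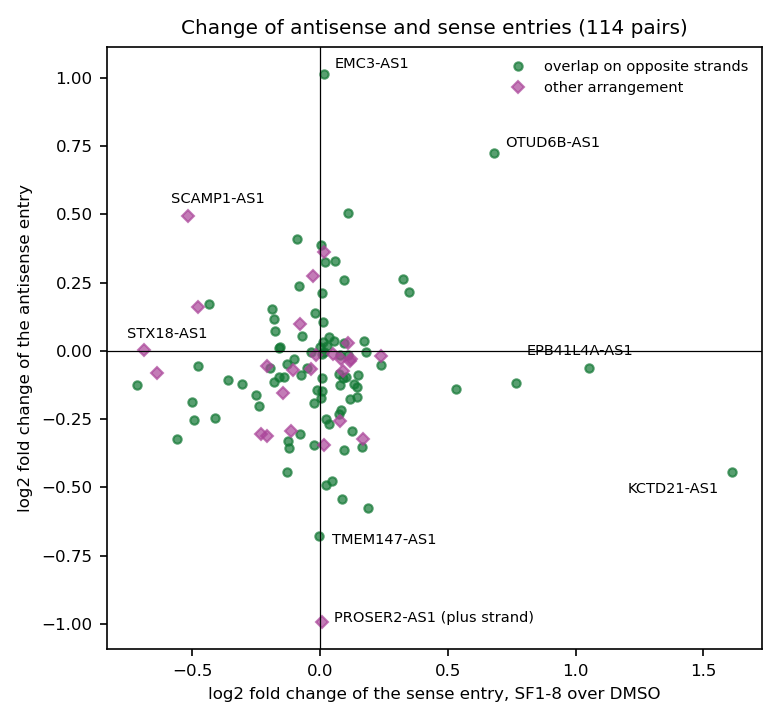
Fitted log2 fold change, SF1-8 over DMSO, of the antisense entry (vertical) and of its sense entry (horizontal) for 114 pairs, with pairs that overlap on opposite strands as green circles. Most points lie near the origin, and EMC3-AS1, TMEM147-AS1 and the plus-strand PROSER2-AS1 entry lie far from it on the vertical axis with sense changes near 0.

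Other entries near the ends of the order followed the same scale. SGMS1-AS1 read 0.390 and 0.370 FPKM with DMSO and 0.472 and 0.466 with SF1-8, with 0.33 ± 0.15 on the log2 scale (SE), while SGMS1, a sphingomyelin synthase, stayed at 12.2 to 12.8 FPKM. ZSCAN16-AS1 read 0.986 and 1.12 against 0.717 and 0.807 FPKM, with -0.44 ± 0.18. MRPL20-AS1, antisense to a mitochondrial ribosomal protein gene, read 4.30 and 5.12 against 3.67 and 3.60 FPKM, with -0.35 ± 0.16. In all 3 the groups did not overlap. The other entries that were lower in both SF1-8 libraries included TP73-AS1, GAS5-AS1, TMPO-AS1, USP2-AS1, KTN1-AS1, NR2F2-AS1 and ZBTB11-AS1, and those that were higher included SNAI3-AS1 and CARD8-AS1.

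Spread between libraries was moderate for most entries. The highest FPKM over the lowest had a median of 1.36, was under 1.5 for 82 entries and was at least 2 for 10. AFAP1-AS1 was the tightest, at 1.02-fold. VIM-AS1, antisense to the gene of the intermediate filament vimentin, alternated within groups, with 4.84 and 2.74 FPKM with DMSO and 5.55 and 2.98 with SF1-8. NOP14-AS1 did likewise, with 0.918 and 1.58 against 0.772 and 1.98 FPKM. In both the groups overlapped, and the log2 fold changes were 0.21 ± 0.38 and 0.15 ± 0.50 (SE).

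Just inside the floor lay ZBED5-AS1, 1 entry of FBXL19-AS1 and ZFPM2-AS1, with lowest counts of 200, 207 and 209, all in DMSO 1. Just outside it lay TAPT1-AS1, MCPH1-AS1 and BTG3-AS1, with lowest counts of 199, 197 and 194, also in DMSO 1. Of the 1437 antisense entries under the floor, 644 entered the fit, 0 had an adjusted p under 0.05 and 25 an unadjusted p under 0.05, with a median log2 fold change of -0.11. DESeq2 called 3 of these entries, C4A-AS1 and C4B-AS1, which lie on near-identical gene copies and are uncertain, and TAT-AS1, and limma on log2(FPKM + 1) called 0. Among 2342 long intergenic entries with LINC symbols, 553 entered the fit, 2 had an adjusted p under 0.05 and 31 an unadjusted one, with a median of -0.10. The 2 were both entries of LINC01399, 1 lower and 1 higher with SF1-8. The 76 of them with at least 200 counts in all libraries had a median of 0.020, with 1 at an adjusted p under 0.05. The counts named neither as DESeq2 nor as limma are from the same fit by edgeR.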

How the data were processed

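RNA was total RNA depleted of ribosomal RNA, made into libraries with an Illumina TruSeq protocol. Per the submitters' processing notes, the authors used cutadapt, FastQC, Bowtie2, HISAT2, StringTie and the hg38 build, with no roles or versions given. The authors deposited 1 table of FPKM, normalized for length and depth, and whole-number values per entry, which were taken as estimated counts without normalization. The deposited FPKM holds a small placeholder where the count is 0, read here as 0. Whether counting used strand, and the authors' test, were not given in the sources used here. The commonest deposited counts above 0 were 4 and 8, ahead of 2 and 3, so a count need not be 1 read and a count of 200 need not be 200 reads. Multiples of 4 made up 27.3% of all counts above 0 and 24.6% of those of the antisense entries. No counting interval was therefore computed, and precision is the spread between 2 libraries a group.

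Groups came from the sample labels. 2095 entries without a name, holding 0.358% to 0.421% of the counts, were left out. Counts were fitted with edgeR 4.0.16 (TMM, filterByExpr, quasi-likelihood test) in R 4.3.3 over 26167 entries. Benjamini-Hochberg adjustment ran over all of them, with a threshold of 0.05. Each SE printed was the absolute log2 fold change divided by the square root of the F statistic of that quasi-likelihood test. The script was tested on simulated data. Alternatives were DESeq2 1.42.0, upper-quartile factors, no filter, a replicate block, counts divided by 4, limma 3.58.1 on log2(FPKM + 1) or log2(FPKM + 0.1), floors of 100 and 400, and leaving out each library. Named entries were the 10 with the highest mean FPKM, the 6 largest rises and falls, the 12 smallest p, those at the floor, those of the 5 sense genes with the smallest p, and the 5 widest pair differences. Other named entries illustrate a count and were chosen after their values were seen. The members and lists were chosen with earlier results of these data known. A sense gene is the entry holding the symbol before -AS, a single-symbol entry being preferred. Sequences are from RefSeq on GRCh38.p14.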

Additional observations from a re-analysis of the deposited data

How the results depend on the processing

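No antisense entry passed the adjusted threshold under any alternative, and the smallest adjusted p ran from 0.057, without DMSO 2, to 1. The number of all entries past it was 11, and 143 by DESeq2, 31 with no filter, 0 with the replicate block, 0 by limma on log2(FPKM + 1) and on log2(FPKM + 0.1), 39 by limma with no filter, and 0 to 30 when 1 library was left out, with 0 without DMSO 1. Same-numbered libraries showed little common deviation. The correlation of the DMSO and SF1-8 replicate differences was 0.020 over all entries and -0.022 over the antisense entries. The labels do not say whether same-numbered libraries were set up together, and a low correlation cannot decide it. With the replicate block 5 antisense entries were at an unadjusted p under 0.05, with a median log2 fold change of -0.067. Leaving out 1 library gave 5 to 11 antisense entries at an unadjusted p under 0.05 and a median of -0.11 to -0.034, and 6 to 10 sense entries with a median of -0.0013 to 0.050. Of these fits, only the one without DMSO 1 had its share of all entries at that threshold given above. For the others and the replicate block no such share was set beside the counts. Those counts therefore cannot show whether antisense or sense entries passed more often than entries in general. A floor of 400 left 2 sense entries at an unadjusted p under 0.05. The sense median was -0.0074 with upper-quartile factors, -0.0051 with counts divided by 4, and -0.017, -0.020 and -0.012 by limma with a pseudocount of 1, of 0.1, and of 1 with no filter.

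Of 68 named fold changes, 29 changed sign under some alternative, in 70 of 812 comparisons, and the cause was not tested. Upper-quartile factors gave -0.013 for STX18-AS1, -7.8e-05 for EIF1B, -0.0074 for PROSER2 and -0.012 for TMEM161B. Counts divided by 4 gave -0.0073 for STX18-AS1, -0.0083 for PROSER2 and -0.0098 for TMEM161B. DESeq2 gave 0.0041 for TMEM147. Without a filter there was 0.0045 for TMEM147. The replicate block gave 0.030 for PROSER2-AS1 (minus strand). By limma on log2(FPKM + 1), with or without a filter, there were 0.00053 for PROSER2-AS1 (minus strand), -0.0036 for STX18-AS1, -0.012 for EIF1B, -0.010 for EMC3, -0.0021 for HCFC1, -0.0098 for PROSER2 and -0.018 for TMEM161B. With a pseudocount of 0.1 limma gave 0.0027 for PROSER2-AS1 (minus strand), -0.015 for STX18-AS1, -0.012 for EIF1B, -0.012 for EMC3, -0.0022 for HCFC1, -0.012 for PROSER2 and -0.022 for TMEM161B. Leaving out 1 library gave, as lowest and highest values, ARRDC1 -0.13 to 0.035, ARRDC1-AS1 -0.14 to 0.017, ATP6V0E2-AS1 -0.00028 to 0.47 and EIF1B -0.052 to 0.088. It gave EMC3 -0.070 to 0.11, EPB41L4A-AS1 -0.21 to 0.11, FBXL19-AS1 (the entry next to the gene) -0.16 to 0.060 and G2E3 -0.27 to 0.056. Further ranges were GATA2 -0.067 to 0.14, GATA2-AS1 -0.12 to 0.25, HCFC1 -0.065 to 0.12 and LBX2 -0.0025 to 0.37. Others were LIMD1 -0.11 to 0.23, MRPL20 -0.058 to 0.023, PROSER2 -0.099 to 0.13 and PROSER2-AS1 (minus strand) -0.31 to 0.37. The same step gave PROSER2-AS1 (plus strand) -1.83 to 1.29, SLC9A3 -0.26 to 0.074, STX18-AS1 -0.14 to 0.14 and SVIL -0.21 to 0.44. Next were SVIL-AS1 (plus strand) -0.093 to 0.93, TMEM147 -0.069 to 0.071, TMEM161B -0.0062 to 0.022 and TMEM161B-AS1 -0.36 to 0.88. Also turning were WAC-AS1 -0.069 to 0.23, ZBED5-AS1 -0.21 to 0.090, ZFPM2 -0.38 to 0.0038 and ZFPM2-AS1 -0.22 to 1.4e-05. The last was ZSCAN16 -0.42 to 0.12. The 2 libraries a group, the lower depth of DMSO 1 and the unknown strand setting of the counts limit each value.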
